A study of Mus musculus with 4 samples.

Results

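Gnas and Gm20721 are protein-coding genes of mouse chromosome 2 that lie on opposite strands and share most of the exons of the smaller gene. Their levels were described in RNA sequencing libraries of T-helper 2 (Th2) cells, the CD4 T cells that make interleukins 4, 5 and 13. Both were chosen from 50600 genes because of their measured levels, ranks and overlap in these libraries, so those values are given as descriptions and were not tested. The study holds 4 libraries of primary Th2 cells of the mouse strain C57BL/6NJ in 1 group, with no treated or control group. The labels number them as biological replicates 1 to 4, give each its own biosample but a single donor, leave age unknown and say that sex was not collected. A time of 72 h stands in the file headers of all libraries, without saying what it marks. The assay is labelled total RNA sequencing, while the library protocol's name speaks of poly(A) RNA. Replicates 1, 3 and 4 are the main libraries, and any p-value below measures only the spread between these samples.

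Gnas encodes the alpha subunit of the stimulatory G protein Gs. Bound to GTP, Gs alpha activates adenylyl cyclase, and the cyclic AMP (cAMP) so made acts through protein kinase A and the transcription factor CREB. In T cells, receptors for prostaglandin E2 and adenosine signal through Gs. Gnas is an imprinted locus in which several first exons, including those for NESP55, XL alpha s, exon 1A and Gs alpha, are spliced to shared downstream exons. Nespas is a non-coding RNA made from the other strand at its upstream end. Gm20721 is a gene model annotated as protein coding, for which no role is known here.

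The libraries held 2388255, 5016, 1929880 and 1713199 counts in replicates 1 to 4, in fragments assigned to genes. Replicate 2 was 341.5-fold below the lowest other library, so that 3 counts, taken as the detection floor, stood for 598.09 CPM, the count scaled to a common library total, there against 1.26 to 1.75 in the others. It is given beside the others and enters no mean unless stated. Tsix, a gene of the X chromosome, had 3223, 2, 1 and 3 counts in replicates 1 to 4, so the libraries differed where the labels name a single donor. Whether they came from 1 animal was not tested. All 13 Th2 markers were counted in each of replicates 1, 3 and 4, with a summed level of 134.8 to 281 TPM, a scaled level that also divides by exonic length. Of 14 markers of other immune cells, 3 were counted in each of these libraries and 8 had no count, with a summed level of 6.25 to 15.9 TPM. In bulk RNA, fewer cells of a type and less RNA per cell cannot be told apart. Genes with exons opposite another gene's exons took 90.74%, 84.81%, 94.22% and 91.33% of the counts in replicates 1 to 4.

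Gnas (ENSMUSG00000027523.19) spans 62425 bases of the plus strand, chr2:174284320-174346744 in mm10, and its 19 exon blocks sum to 11186 bases. Gm20721 (ENSMUSG00000090625.1) spans 16394 bases of the minus strand, chr2:174330319-174346712, and its 13 exon blocks sum to 1484 bases. Of these, 1469 bases, or 99.0%, lay opposite exons of Gnas, and only 15 did not. The same 1469 bases were 13.1% of the exons of Gnas. Gm20721 starts, in its own direction, 32 bases inside the end of Gnas, and 8674 exonic bases of Gnas lie upstream of its far end, 6378 of them in the 7 blocks that end before it. The first exons for NESP55 and XL alpha s are known to lie on that upstream side. At that side, 988 exonic bases of Gnas lay opposite Nespas. Over the whole of Gnas, 8729 exonic bases, or 78.0%, lay opposite neither Nespas nor Gm20721.

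The 2 gene models also shared block ends. Of the 13 blocks of Gm20721, 3 had both ends of a Gnas block, 5 had 1 end in common and 5 had neither. Of its 12 introns, 7 were introns of a Gnas transcript base for base. The shortest intron was 4 bases long, the next 81 and the longest 4861. In GENCODE vM21, which lists 24 transcripts of Gnas and 1 of Gm20721, 939 of the 954 coding bases of Gm20721, or 98.4%, lay opposite coding bases of Gnas. The second exon of Gm20721, chr2:174345990-174346057, is an example, 68 bases long and present in 12 Gnas transcripts. It is shown in both directions, 5′ to 3′, from the GENCODE vM21 transcripts on GRCm38, because the 2 genes occupy exactly the same bases there. Capitals mark the first and last 12 bases, which pair end for end between the strands.
Gnas exon, plus strand: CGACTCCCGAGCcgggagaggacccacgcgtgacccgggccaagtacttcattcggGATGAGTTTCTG
Gm20721 exon 2, minus strand: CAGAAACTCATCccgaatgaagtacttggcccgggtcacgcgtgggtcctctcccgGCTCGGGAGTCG

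A fragment from this exon can be given to one gene or the other only by its strand. The intron at chr2:174341708-174341809, 102 bases long, is shared by Gm20721 and 15 Gnas transcripts. It was the only intron of Gm20721 readable in full, because a Gnas transcript that retains it is annotated. It is shown in both directions with its first and last 2 bases in capitals.
Gnas intron, plus strand: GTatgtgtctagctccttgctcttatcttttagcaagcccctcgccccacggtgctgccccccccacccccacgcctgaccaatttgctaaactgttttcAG
Gm20721 intron, minus strand: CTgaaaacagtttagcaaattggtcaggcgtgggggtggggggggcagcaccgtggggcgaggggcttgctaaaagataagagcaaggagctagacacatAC

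Read along Gnas, this intron starts with GT and ends with AG, the usual bases at the ends of an intron. Read along Gm20721 it starts with CT and ends with AC. Some single ends of other introns could be read. In the direction of Gm20721, 2 more introns start with CT. Of these, the intron of 1777 bases is also an intron of Gnas and that of 2460 bases is not. In the same direction, 3 others end with TG, AG and AT, and those 3 are not introns of Gnas. The rest was not read, since no genome sequence was used here.

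Gm20721 had 51004, 57, 42320 and 36672 counts in replicates 1 to 4, which were 2.14%, 1.14%, 2.19% and 2.14% of all counts. Its level was 21356, 11364, 21929 and 21406 CPM, or 20575, 11789, 20813 and 20844 TPM. Replicates 1, 3 and 4 lay close together and replicate 2, at 57 counts, lay below all 3. Replicate 2's share of 1.14% had an exact 95% interval of 0.862% to 1.47%, which did not reach the shares of the others. Intervals and floors cover counting error only, since fragments were counted without molecular identifiers. Over replicates 1, 3 and 4 the mean was 20744 ± 147 TPM (SD, n = 3) and 21564 ± 317 CPM.

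By mean TPM, Gm20721 was the third of all genes, after mt-Nd6, a mitochondrial gene for a subunit of respiratory complex I, at 42678 ± 2420 TPM, and CT010467.1, a ribosomal RNA gene, at 27273 ± 7208 TPM. It was first among nuclear protein-coding genes in each of the 4 libraries. The fourth gene, Gm20412, an annotated processed transcript, had 20650 ± 2834 TPM, so its distance from Gm20721 was within its own spread. These 3 other genes are named after their values were seen. By mean CPM, which does not divide by length, Gm20721 was second to CT010467.1. The coefficient of variation of its CPM was 1.47% over replicates 1, 3 and 4. Among 404 genes with a mean count of 1000 or more the median was 5.73%, and 17 genes had a lower value than Gm20721.

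Gnas had 229, 0, 100 and 136 counts in replicates 1 to 4. Its level was 95.9, 0, 51.8 and 79.4 CPM, or 12.3, 0, 6.52 and 10.3 TPM. Replicate 1 was highest and replicate 3 lowest of the 3 deep libraries, and the 0 of replicate 2 is under a floor of 598.09 CPM, with an exact 95% upper limit of 0.0735% of its counts. The mean over replicates 1, 3 and 4 was 9.68 ± 2.91 TPM and 75.7 ± 22.3 CPM (SD, n = 3), with a coefficient of variation of 29.4% in CPM. Gnas was 3462nd of all genes by mean TPM and 1649th by mean CPM. All transcripts of the locus are summed in this gene-level count, so its first exons cannot be told apart.

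Per kb of exons, Gm20721 had 1679, 3190 and 2033 times the counts of Gnas in replicates 1, 3 and 4, with exact 95% intervals of 1474 to 1920, 2622 to 3922 and 1718 to 2423. Replicate 3 was highest, where Gnas was lowest, and its interval did not overlap those of the others. Replicate 3 also had the largest share of counts in genes with exons opposite another gene, at 94.22%. Whether the ratio follows that share was not tested. In replicate 2 the ratio was at least 143-fold with Gnas set to the floor of 3 counts in that library, and at least 113-fold by the exact interval. The mean over replicates 1, 3 and 4 was 2300 ± 790 (SD, n = 3), and the ratio of their summed counts was 2107 (1924 to 2313). Gnas held 0.447%, 0.236% and 0.369% of the counts of the pair in replicates 1, 3 and 4. In replicate 2 it held none of 57, which allows a share of up to 6.27% by the exact interval.

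**Figure D1:**
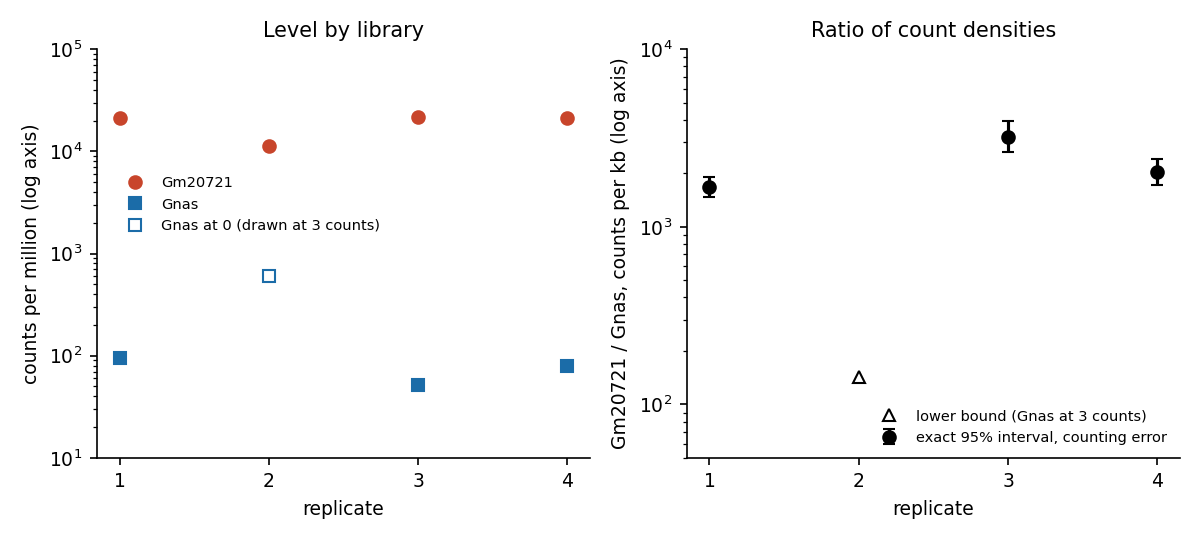
Left, CPM of Gm20721 (circles) and Gnas (squares) in each replicate on a log axis, with the open square marking Gnas at 0 counts, drawn at the floor of 3 counts. Right, ratio of counts per kb on a log axis, with exact 95% intervals for the counting error and, as a triangle, the lower bound in replicate 2; the 3 deep libraries lie between 1679 and 3190.

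The counting took read 1 on the strand of the gene, per the file headers. The sources used here do not say which strand read 1 of these libraries carries, and counts under the opposite setting were not used here. Nearly all exonic bases of Gm20721 are shared with Gnas. The counts of the pair alone do not tell RNA of Gm20721 from RNA of Gnas counted on the other strand. Among the 164 nested pairs described below, the outer gene had fewer counts per kb in 148. Rhoa, for example, had 73 counts against 6693 for Gm37401 inside it, and Jund 278 against 58494 for Gm11175. Whether the strand setting fits these libraries was not tested. How many counts of Gnas fell on its 8729 exonic bases opposite neither gene, gene-level counts do not say.

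The small genes of the span had few counts, but short exons. Nespas had 1, 0, 0 and 2 counts in replicates 1 to 4, or 0.95 counts per kb over replicates 1, 3 and 4. A pair of annotated small RNAs on the plus strand overlap its exons. Gm27869, all 122 bases of which are opposite Nespas, had 17, 0, 13 and 12 counts, or 344 per kb, and 81.4 ± 3.14 TPM (SD, n = 3). Gm27849, with 100 of 125 bases opposite Nespas, had 7, 0, 2 and 5 counts, or 112 per kb, and 26.3 ± 12.7 TPM. Both small RNAs were thus counted in each of the 3 deep libraries, on the strand opposite Nespas. Gm27899, which lies in an intron of Nespas, had 1 count over replicates 1, 3 and 4.

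Genes within 200 kb of Gnas did not share the level of Gm20721. On the side beyond its end, Nelfcd, a subunit of the negative elongation factor, had 206 counts over replicates 1, 3 and 4 and 16.7 ± 3.08 TPM. Ctsz, the protease cathepsin Z, overlaps Nelfcd by 10 bases and had 271 counts and 44.7 ± 3.41 TPM. Prelid3b had 67 counts, Npepl1 42, Atp5e, a subunit of ATP synthase, 22, Stx16, a SNARE protein of vesicle traffic, 18, Gm10714 2 and Gm14385 1. No count was given to Mir296, Mir298, Gm27591, Rpl30-ps5 or Tubb1 in these libraries. Gm20721 alone had 129996 counts, and the highest of these neighbours by counts, Ctsz, had 271.

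Pairs of the same shape were set beside it. In 164 pairs, 90% or more of the exonic bases of an inner gene were covered by exons of an opposite, protein-coding outer gene, and replicates 1, 3 and 4 gave the pair at least 300 counts in sum. The outer gene had fewer counts per kb than the inner one in 148 of them. The median density of the outer gene was 0.232% of that of the inner gene. Some inner genes were short, with 1 of only 39 bases, against 1484 for Gm20721. Counts per kb divide by that length, so the median and the place of Gnas depend on it. The order among longer inner genes alone was not tested. Gnas stood at 0.0475% of Gm20721, with 0.0596%, 0.0313% and 0.0492% in replicates 1, 3 and 4, which placed the pair 21st of 164 from the lowest. Its neighbours in that order were Gm19918 inside Fam20b at 0.0456% and Gm37401 inside Rhoa, a small GTPase, at 0.0505%, both within the range of Gnas over the libraries. So Gnas was below the median but not at the end of the order, and 20 pairs had a lower outer density. Without replicate 3 the median was 0.269%, against 0.174% without replicate 1 and 0.185% without replicate 4. Gnas moved the same way, to 0.0552%, 0.0396% and 0.0468%, so a low outer density in replicate 3 was not particular to Gnas.

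The Gnas pair had the most counts of all 164 and the highest inner density, but came second by inner density without replicate 1 and without replicate 4. The next pairs by counts, Snord4a and Snord42a inside Tlcd1, had the opposite order. Tlcd1 had 68819 counts, against 23 and 13 for these small nucleolar RNA genes. Gm11175 inside Jund, an AP-1 factor, came next, named after its values were seen, and had the order of the Gnas pair, with Jund at 0.25% of the inner density. These pairs share libraries and were known from earlier results, and the order was not tested.

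**Figure D2:**
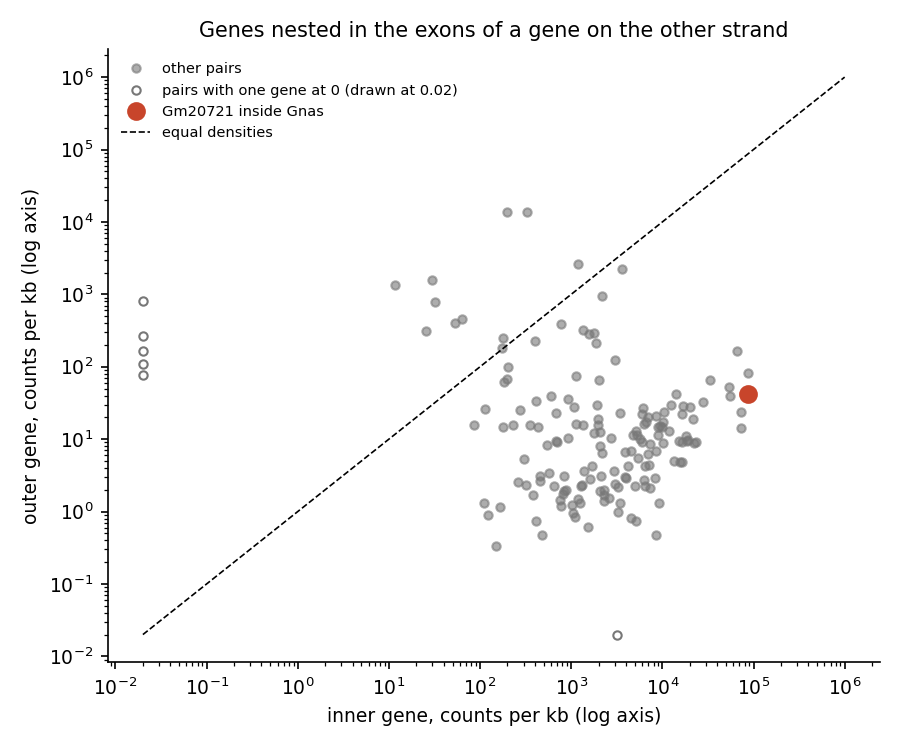
Counts per kb, summed over replicates 1, 3 and 4, of the inner gene (x axis) and the outer gene (y axis) of each of 164 nested pairs, on log axes; open points have 1 gene at 0 and are drawn at 0.02. Most points lie below the dashed line of equal densities (148 of 164), and the pair of Gm20721 and Gnas (large point) lies at the right.

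The difference between libraries was not used to choose the genes, so it was tested for both. With edgeR's quasi-likelihood test of each library against the other 3 (Benjamini-Hochberg over 5969 genes, threshold 0.05), 3 genes or 0.0503% were called in replicate 1, 809 or 13.6% in replicate 3 and 2 or 0.0335% in replicate 4. Leaving out replicate 4 gave 638 calls in replicate 1, leaving out replicate 1 gave 469 in replicate 3 and 423 in replicate 4, and DESeq2 called 0 in each. Neither Gnas nor Gm20721 was called in any of them. Gm20721 had log2 fold changes of 0.30 ± 1.84 (SE), 0.58 ± 1.63 and 0.35 ± 1.62, whose wide errors include the 57 counts of replicate 2. Gnas had 0.49 ± 0.47, -0.60 ± 0.34 and 0.12 ± 0.58 in replicates 1, 3 and 4. The adjusted p of Gnas in replicate 3 was 0.272, and it ranged down to 0.0546 without replicate 4, with a log2 fold change of -0.74. Without replicate 2 the log2 fold change of Gm20721 in replicate 3 was 0.17 ± 0.064 with an edgeR adjusted p of 0.0512, and that of Gnas was -0.63 with 0.0858. Each test sets 1 library against the others, so a p above the threshold does not show that the libraries were alike.

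The genes whose pattern over replicates 1, 3 and 4 was nearest to that of Gm20721 were Gm16279, Gm27972, Dnajc14, Mtx1 and Tomt, of 6921 genes compared. Their distance, the root mean square difference of centred log2 CPM over 3 libraries, was 0.0025 to 0.0050. All 5 have exons opposite another gene, as do 55.8% of the genes compared. Over 3 libraries such nearness is common, and 1287 genes lay within 0.1 of Gm20721.

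The rest of the Gs pathway was set against 1 TPM, with 8 lists of 115 genes. Of these, 27 were above 1 TPM, 13 below, 48 not decided and 27 without a count in replicates 1, 3 and 4 (limma on log2(TPM + 0.1), Benjamini-Hochberg over 17740 genes, threshold 0.05). Over all genes tested, 34.8% were above and 16.1% below. The 17740 genes tested leave out genes without a count. Over the 88 list genes that had one, the median was 1.29 TPM, beside 1.35 TPM over all genes tested, and with those at 0 it was 0.662 TPM over the 115. Among the 88, 11 of 19 genes with exons opposite another gene and 16 of the 69 others were above 1 TPM, or 57.9% and 23.2%. Over all genes tested these shares were 59.5% and 21.7%, close to those of the lists. The medians of the classes were 3.45 and 0.941 TPM in the lists and 5.30 and 0.870 TPM over all genes tested. Adding replicate 2 left 5 above, and leaving out any of replicates 1, 3 or 4 left none below. Gnas itself, which was chosen for its level, lay at 9.68 TPM, higher than most list members. The levels of the list genes, like that of Gnas, rest on the strand setting of the counts, whose fit was not tested.

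Of 23 Gs-coupled receptors, 4 were above 1 TPM, 4 below, 4 not decided and 11 without a count. Ptger4 and Ptger2, the prostaglandin E2 receptors that couple to Gs, had 35.8 ± 2.67 and 13.8 ± 2.14 TPM (SD, n = 3). In Ptger2, which has no exon opposite another gene, the TPM was 13.2, 16.2 and 12.1 in replicates 1, 3 and 4, all far above 1 TPM (limma adjusted p = 3.0e-06). Part of Ptger4, 16.5% of its exonic bases, lies opposite other genes, mainly Gm15937. That gene had 6 counts over replicates 1, 3 and 4, against 1003 for Ptger4. Ptgir, the prostacyclin receptor, had 6.18 ± 1.85 TPM, and Gpr65, a proton-sensing receptor, 5.74 ± 2.28. Of the exonic bases of Gpr65, 24.7% lie opposite Gm47566, which had 10312 counts over replicates 1, 3 and 4, against 51 for Gpr65. Adora2a, the adenosine receptor known to dampen T cells, was not decided at 0.941 ± 0.767 TPM.

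Among 12 G alpha subunits, 4 were above 1 TPM, 1 below, 4 not decided and 3 without a count. Gnal, which encodes the Gs-type alpha subunit of olfactory neurons and striatum, was highest, at 84.9 ± 5.75 TPM, with 79.1, 90.6 and 84.9 TPM in replicates 1, 3 and 4. Its lowest value was above the highest value of Gnas, as both were counted under a strand setting whose fit was not tested. Of the exonic bases of Gnal, 6.34% lie opposite Mppe1, which had 214 counts over replicates 1, 3 and 4, against 2056 for Gnal. Gnai2 and Gnai3, which inhibit adenylyl cyclase, had 12.8 ± 5.11 and 5.59 ± 2.33 TPM, and Gna13 3.45 ± 1.52 TPM. Gna13 has 2.35% of its exonic bases opposite Gm11696, which had 2819 counts over replicates 1, 3 and 4, against 91 for Gna13.

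Of 15 beta and gamma subunits, which hold the alpha subunit when it is inactive, 5 were above 1 TPM, 2 below, 4 not decided and 4 without a count. Gng13 and Gng3, known mainly from taste and nerve cells, had 154 ± 10.4 and 97.6 ± 20.7 TPM. Both lie partly opposite another gene, Gng13 by 51.6% of its exons opposite Chtf18 and Gng3 by 23.4% opposite Bscl2, and those partners had 12 and 10 counts over replicates 1, 3 and 4. Gnb1 and Gnb2 had 7.96 ± 3.55 and 6.49 ± 2.88 TPM and no exon opposite another gene.

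Of 10 chaperones and regulators, 3 were above 1 TPM and 7 not decided, with 7 above without replicate 3 and 1 without replicate 4. Ric8a, a chaperone of G alpha subunits other than Gs, had 19.7 ± 0.536 TPM and lies partly opposite Sirt3. Sirt3 had 121 counts over replicates 1, 3 and 4, against 586 for Ric8a. Ric8b, the chaperone of Gs alpha and of the Gnal product, had 5, 0, 1 and 0 counts and was not decided at 0.235 ± 0.296 TPM. Rgs1 and Pdcl had 2.98 ± 1.01 and 2.78 ± 0.689 TPM, and Rgs2 was not decided at 2.60 ± 1.70 TPM.

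Downstream, 3 of 10 adenylyl cyclases were above 1 TPM, none below, 3 not decided and 4 without a count. Adcy4 had 21.9 ± 7.74 TPM, Adcy3 8.60 ± 0.815 and Adcy7, a cyclase prominent in blood cells, 3.96 ± 0.205, and Adcy9 was not decided at 2.01 ± 0.210. Adcy3 lies partly opposite Cenpo, which had 1738 counts, against 226 for Adcy3. Of 14 cAMP phosphodiesterases, which degrade cAMP, 2 were above 1 TPM, 1 below, 8 not decided and 3 without a count. Pde3b had 12.8 ± 2.30 and Pde7a 10.7 ± 1.63 TPM, while Pde8a at 2.34 ± 1.43 and Pde4d at 1.89 ± 0.388 TPM were not decided. Pde7a has 0.62% of its exonic bases opposite Gm16093, which had 2344 counts, against 349 for Pde7a.

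Of 15 cAMP effectors, 4 were above 1 TPM, 2 below, 7 not decided and 2 without a count. The anchoring protein Akap9 had 15.1 ± 1.01 TPM, the regulatory subunit of protein kinase A Prkar1a 6.82 ± 2.85, Akap8 6.56 ± 3.31 and the catalytic subunit Prkaca 3.79 ± 1.90. Akap9 has 0.78% of its exonic bases opposite Cyp51, which had 122 counts over replicates 1, 3 and 4, against 1367 for Akap9. Of 16 CREB factors and cAMP-induced genes, 2 were above 1 TPM, 3 below and 11 not decided. Nr4a1, an immediate early gene, had 3.49 ± 1.85 TPM and Crem, a cAMP-responsive repressor and activator, had 4.16, 1.73 and 4.15 TPM in replicates 1, 3 and 4. Both were lost without replicate 1 and without replicate 4, where none of this list was above, while 4 were above without replicate 3. Creb1 itself was not decided at 0.713 ± 0.427 TPM, nor were Ep300 at 1.82 ± 0.786 and Atf1 at 1.81 ± 1.18. Crem has 1.75% of its exonic bases opposite Gm6225, which had 21 counts over replicates 1, 3 and 4, against 84 for Crem.

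**Figure D3:**
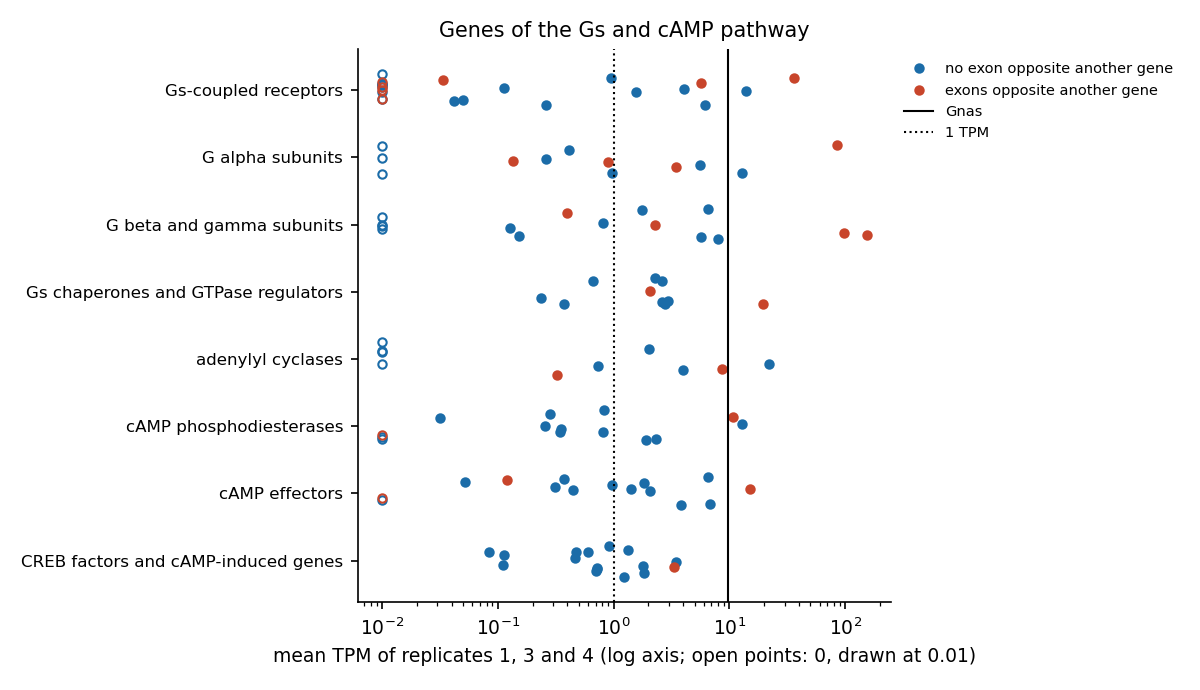
Mean TPM of replicates 1, 3 and 4 on a log axis for the genes of the 8 lists (1 row each), with open points for genes at 0, drawn at 0.01. Red points have exons opposite another gene and blue points none; the solid line is Gnas at 9.68 TPM and the dotted line 1 TPM.

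Imprinted genes elsewhere were read beside the locus. Of 18, 2 were above 1 TPM, 4 below, 5 not decided and 7 without a count, with 4 above without replicate 3. The count below was 0 without replicate 1 or 3 and 1 without replicate 4. Mest, a hydrolase gene expressed from the paternal copy, had 10.9 ± 2.89 TPM, a level near that of Gnas, and lies partly opposite Copg2. Copg2 had 37 counts over replicates 1, 3 and 4, against 177 for Mest. Zrsr1, a retrotransposed splicing factor gene within an intron of Commd1, had 6.27 ± 1.28 TPM and lies partly opposite that gene. Commd1 had 883 counts over replicates 1, 3 and 4, against 89 for Zrsr1. Plagl1 at 2.10 ± 0.435 and Igf2r at 2.02 ± 1.35 TPM were not decided. These counts do not tell the parental alleles apart.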

How the data were processed

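RNA of 4 libraries of 1 group was measured. The deposited values were unnormalised gene counts. Per the file headers, featureCounts 1.4.6-p4 counted pairs with both mates mapped over GENCODE vM13 exons on mm10, on strand setting 1. No aligner version was given in the sources used here. Reads counted to 1 strand keep overlapping genes apart only if that setting fits the library kit, which was not tested. Symbols came from GENCODE vM21 (224 of 50600 identifiers had none).

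CPM and TPM were computed from the counts and exonic lengths with pandas 2.3.3, scipy 1.17.1 and numpy 2.4.6 under Python 3.11.15. Strand overlaps were found with bedtools 2.31.1. Libraries were compared with the quasi-likelihood test of edgeR 4.0.16 (TMM, mean count of 10 or more), which assumes for the lone library the spread of the rest, with DESeq2 1.42.0 as the alternative. The SE given for edgeR is the absolute log2 fold change over the square root of the test's F statistic, not an error taken from the fit. In R 4.3.3, limma 3.58.1 set log2(TPM + 0.1) of genes with at least 1 count against the level of 1 TPM. Benjamini-Hochberg adjustment ran over all genes tested. Ratios carry exact 95% intervals. Tested on simulated counts, edgeR called 102 of 189 genes changed 4-fold in replicate 1, with 19 false calls, and 84 of 186 with 15 in replicate 3.

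Both genes, the lists and the tests were chosen with earlier results of these data known. Named are both genes, genes overlapping or within 200 kb of Gnas, up to 4 genes per list by mean TPM with a few lead genes, 5 nearest patterns, and pairs with the most counts or next to Gnas. A result that this rule names is not reported here. Alternatives were lengths, pseudocounts, filters, scalings, tools, libraries and overlap limits.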

Additional observations from a re-analysis of the deposited data

Results flagged for a closer look

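Of 53 genes whose 4 libraries were compared, 13 had 1 library apart by the gap to its nearest neighbour over the whole range (Dixon's test at 95%, which by chance marks about 1 in 20). Gm20721 TPM was among them at 0.97, with replicate 2 low. In the same way replicate 2 was low, at no count, for Adcy7 (0.903), Akap9 (0.875), Ctsz (0.865), Gm27869 (0.932), Gng13 (0.877) and Ric8a (0.951). It was high on 1 to 3 counts for Gnal (0.858), Igf2r (0.925), Pde7a (0.899) and Prkaca (0.969). For Gm14385 and Gm27899 (1.0 each) a single count in 1 library stood apart from 3 at 0. Replicate 2 had 5016 counts, so the floor of 3 counts stands for 598.09 CPM there.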

How the results depend on the processing

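No paired analysis was possible because all libraries belong to a single group. Of 213 alternative values, 135 kept their direction, side of the threshold or size, 75 moved and 3 reversed. With gene span in place of exonic length the density ratio was 1065. Gm20721 was at 18505 TPM with replicate 2 added, and at 14580 and 14664 as CPM per kb scaled by TMM and DESeq2, where Gnas was at 6.68 and 6.62. DESeq2 called 0 genes in each of replicates 1, 3 and 4 (1, 20 and 2 at an unadjusted p under 0.05). Leaving out 1 other library, edgeR called 2 to 638 genes in replicate 1, 469 to 1051 in replicate 3 and 3 to 423 in replicate 4. The uncalled log2 fold changes that changed sign were those of Gm20721 without replicate 2, at -0.11 in replicate 1 and -0.063 in replicate 4, and of Gnas in replicate 4 without replicate 3, at -0.20. Leaving out 1 library, Gm20721 ranged from -0.11 to 0.65 and from -0.063 to 0.71 in replicates 1 and 4, and Gnas from -0.20 to 0.58 in replicate 4. Of the 8 lists, 5 genes were above 1 TPM with all 4 libraries and 16 counting only those without opposite exons. Below 1 TPM were 21 with all 4 libraries, 25 on log2(TPM + 1), 37 with no filter and 0 without any 1 of replicates 1, 3 and 4. At 50% nesting the median outer density was 0.435%, and at 100% the Gnas pair drops out. The cause of these moves was not tested. Gnas rests on 100 to 229 counts a library, which limits its precision.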
